A study of Homo sapiens with 12 samples.

Results

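The genes described here encode 51 protein components of the spliceosome, the machine that removes introns from pre-mRNA, and they were chosen by name among 63541 gene identifiers measured. They cover the Sm and LSm rings, the U1, U2, U4/U6 and U5 snRNPs, factors that recognise the 3' splice site, the complex around PRPF19 (NTC) with catalytic-stage proteins, and the minor U11/U12 snRNP. The 10 subunits of SF3A and SF3B, the largest part of U2 snRNP, were left out and serve as a comparison. Each member matched 1 Ensembl identifier in the table.

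The libraries came from HEK293T, a human embryonic kidney line that carries adenoviral sequence and SV40 large T antigen. All cells were transfected with 12.5 nM siRNA by lipofection and collected after 48 h. One group received a scramble siRNA, and the others received si-snaR-A#1, si-snaR-A#2 or si-snaR-A#3, siRNAs against snaR-A (named siRNA #1, #2 and #3 below), a small noncoding RNA made by RNA polymerase III. Each of the 4 groups had 3 libraries, described by the study as biological replicates handled on the same day, and all siRNA groups were compared with the same scramble libraries. The comparisons ask whether mRNAs of the splicing machinery differed when snaR-A, which the study linked to splicing factors, was targeted. No snaR-A gene name is in the annotation used here, so the knockdown itself was not checked.

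Pre-mRNA splicing proceeds by ordered assembly. U1 snRNP marks the 5' splice site, and SF1 and U2AF mark the branch point and the polypyrimidine tract before U2 snRNP joins. The U4/U6.U5 tri-snRNP then docks, helicases unwind U4 from U6, and the NTC stabilises the catalytic centre. Sm proteins form a ring on most spliceosomal snRNAs, while the LSm ring binds the 3' end of U6.

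The libraries held 120.4 to 180.1 M estimated counts each. Levels are given below as CPM, the count scaled to a common library total, after TMM scaling, which adjusts for differences in composition between libraries. Markers of the line were present in every library, including VIM at 462 to 767 CPM and NEFM at 244 to 462 CPM. Of the defining markers of other cell types, UMOD and AQP2 of mature kidney tubule were at 0 throughout, and PTPRC of leukocytes and CDH5 of endothelium reached at most 0.116 and 0.0294 CPM. The fibroblast list was mixed, with COL1A1 at 13.04 to 26.97 CPM and COL1A2 at no more than 0.0234 CPM.

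Of the 51 members, 49 passed the filter on low counts and were among 21999 genes tested. The remaining members, LSM2 and SNRPN, were listed at 0 in all 12 libraries. LSM2 belongs to the LSm ring and SNRPN encodes a tissue-restricted Sm protein related to SNRPB. SNURF, which shares its transcript with SNRPN, was also listed at 0, and 1543 of 19515 protein-coding identifiers had no count in any library. Identifiers outside GENCODE release 44 held 2.69% to 2.90% of the counts, and whether copies of these genes are among them was not tested. A listed 0 is therefore not read here as absence of the mRNA.

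Genes of the core snRNPs were the highest of the members per transcript length. In scramble libraries, SNRPD2 had the largest mean level per kilobase of the canonical transcript, at 355 CPM per kb. SNRPB followed at 203 CPM per kb and SNRPF at 189 CPM per kb. At the other end, LSM8 had 6.36 CPM per kb, AQR, a helicase-like protein of the catalytic spliceosome, had 6.80 CPM per kb, and PDCD7 of the minor snRNP had 8.73 CPM per kb. Canonical lengths need not be the lengths the authors used for counting, and the canonical LSM8 transcript, 12384 bases long, lowers its value on this scale. The summed level of the members was 6098 to 6201 CPM in scramble libraries, 6182 to 6512 CPM with siRNA #1, 6257 to 6373 CPM with siRNA #2 and 6257 to 6297 CPM with siRNA #3. After TMM scaling, the siRNA #1 range overlapped scramble, and the other 2 siRNAs lay above it, at 102% to 104% of the scramble mean. That order depended on the scaling. Before it, the members held 0.614% to 0.631% of the counts in scramble and 0.668% to 0.680% with siRNA #1. The shares were 0.607% to 0.613% with siRNA #2 and 0.602% to 0.610% with siRNA #3. By that share, siRNA #1 lay above scramble and the others lay below it.

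Against scramble, more members rose than fell with each siRNA. With siRNA #1, 15 members rose, 8 fell and 26 did not pass an adjusted p of 0.05 in edgeR's quasi-likelihood test. That is 46.9% of the members tested, beside 45.2% of all genes tested, with 21.9% of them higher and 23.3% lower. With siRNA #2, 12 rose, 7 fell and 30 did not pass, or 38.8% beside a background of 25.8%, with 13.7% higher and 12.1% lower. With siRNA #3, 14 rose, 4 fell and 31 did not pass, or 36.7% beside 29.4%, with 16.5% higher and 13% lower. The share called with siRNA #1 was thus near its background. Here and below, the background of all genes was not matched to the members for level. Of the genes measured, 14529 reached a mean of 1 CPM, fewer than the 21999 tested. The tested member with the lowest level, ZMAT5, had a mean of 10.1 CPM in scramble. Low counts make a call harder, and the part of level in the members' shares was not tested. For the mean of the siRNAs, 17 rose and 8 fell, or 51.0% beside 32.2%, with 15.6% of all genes higher and 16.6% lower. The median log2 fold change of the members in that comparison was 0.027, beside -0.038 over all genes. The sign of the members' median turned with upper quartile scaling (-0.0036), and the median over all genes moved down as well, to -0.069. The members' median thus stayed above that of all genes under this scaling. Leaving out single libraries gave 0.015 (without scramble replicate 1) to 0.053 (without scramble replicate 3). The splits also depended on scaling: with upper quartile scaling 9 rose and 11 fell with siRNA #2, 10 rose and 11 fell with siRNA #3, and 13 rose and 13 fell for the mean. With median-ratio scaling (RLE), 14 rose and 5 fell with siRNA #2. Shares of all genes called are from the main fit only and were not taken for other settings. With upper quartile scaling, the median over all genes was -0.077 with siRNA #2 and -0.086 with siRNA #3, so all genes shifted downward too. In bulk libraries, a change in RNA per cell and a change in the mix of cells cannot be told apart. Markers moved with the siRNAs too. COL1A1 was called lower with each siRNA, at 24.5 to 26.97 CPM in scramble and 13.04 to 14.5 CPM with siRNA #3, while LUM, VIM and NEFM were called higher with siRNA #2 and siRNA #3. The 4 fibroblast markers summed to 28.9 to 30.9 CPM in scramble, 25.6 to 27.8 CPM with siRNA #1, 24.5 to 29.6 CPM with siRNA #2 and 20.2 to 21.9 CPM with siRNA #3, and the 7 markers of the line to 1103 to 1199, 1002 to 1141, 1606 to 1624 and 1320.1 to 1404 CPM. Their part in the members' changes was not tested.

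**Figure D1:**
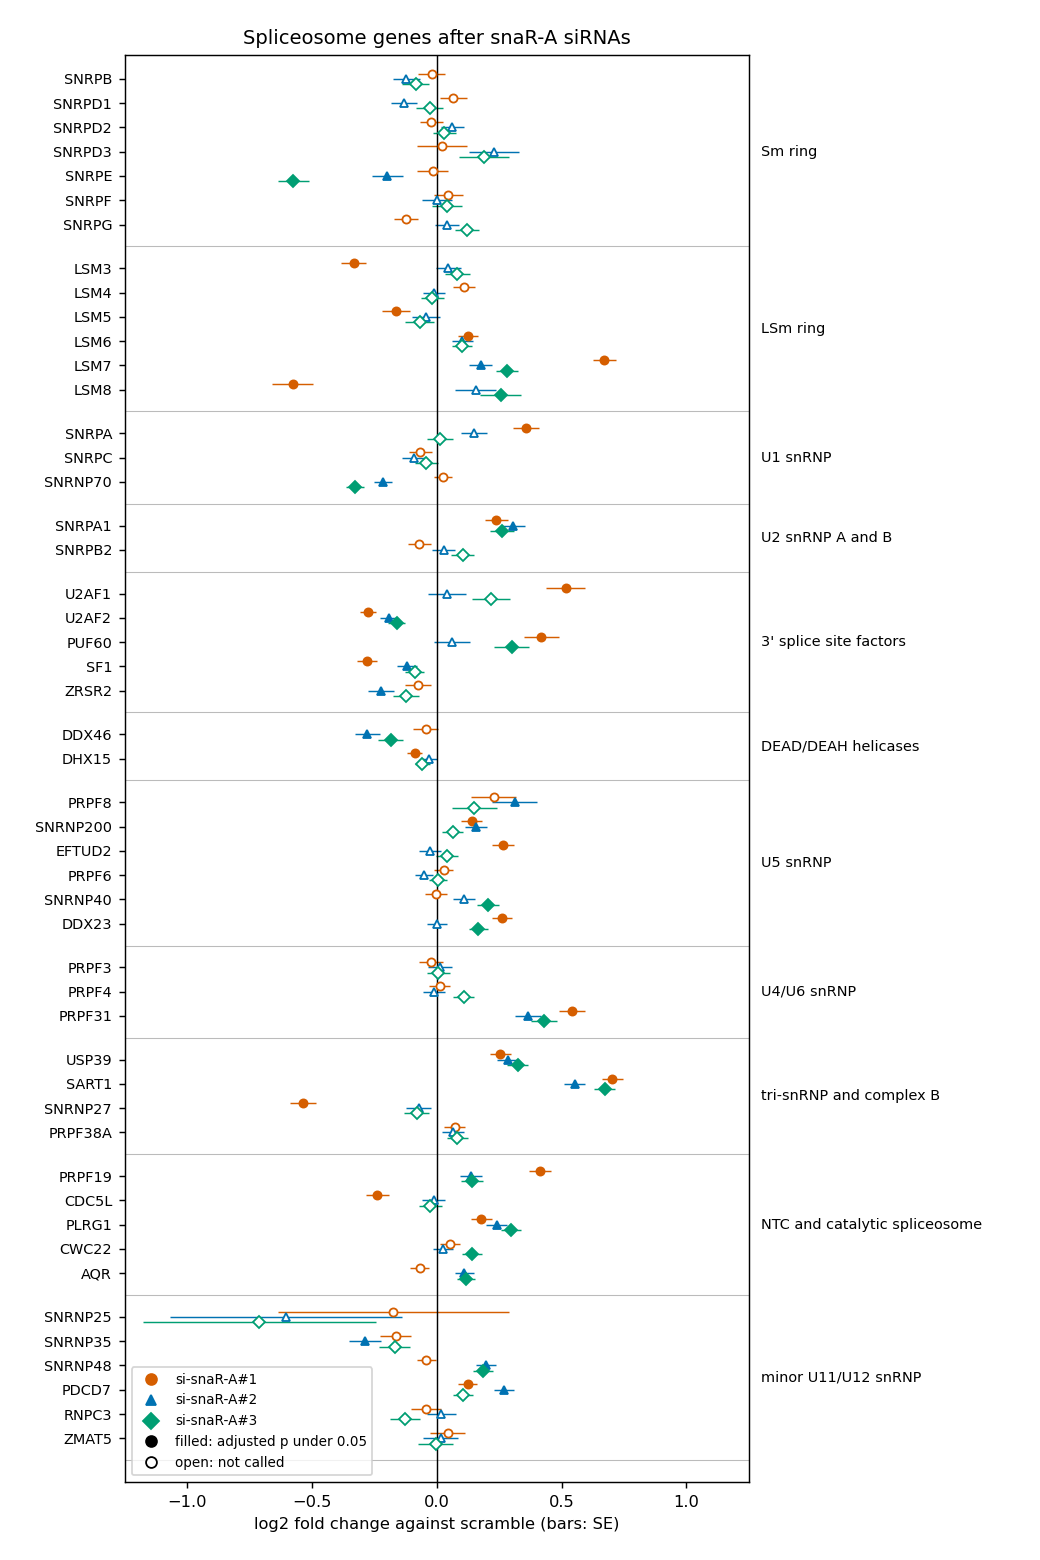
Log2 fold change against scramble (horizontal axis; bars are SE) of the 49 tested spliceosome genes, grouped by role, with a circle for siRNA #1, a triangle for siRNA #2 and a diamond for siRNA #3, filled where the adjusted p was under 0.05. SART1, PRPF31 and USP39 lie to the right of 0 with every siRNA, while LSM8 and SNRNP27 lie far to the left with siRNA #1 alone.

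Across the single siRNAs, 16 members were called with none, 14 with 1, 11 with 2 and 8 with all 3. The 16 not called with any siRNA were 32.7% of the members, beside 40.2% of all genes. The 8 called with all siRNAs kept 1 direction each. There were 7 that rose, 14.3% of the members beside 5.16% of all genes, namely SART1, PRPF31, LSM7, USP39, SNRPA1, PLRG1 and PRPF19. A single member, U2AF2, fell with all siRNAs, 2.04% of the members beside 2.84% of all genes. In each of the 8, all 9 siRNA libraries lay on 1 side of the 3 scramble libraries, which held for 4.85% of all genes in the upward and 2.72% in the downward direction. The siRNA comparisons share their scramble libraries, so agreement between them is not independent. The siRNAs also overlap in sequence, per the study's list. siRNA #3 is siRNA #2 with 1 more base at its start, and siRNA #1 shares most of the same stretch.

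SART1, a tri-snRNP protein needed for its recruitment to the pre-spliceosome (ENSG00000175467, chr11:65961728-65980137 in hg38, plus strand), had the largest rise with every siRNA. Its levels were 43.6, 43.8 and 45.4 CPM in the scramble libraries, 75.1, 71.6 and 69.5 CPM with siRNA #1, 64.4, 62.3 and 68.1 CPM with siRNA #2 and 69.6, 69.8 and 72.1 CPM with siRNA #3. The lowest siRNA library, at 62.3 CPM, stood above the highest scramble library, at 45.4 CPM. The log2 fold change was 0.70 with siRNA #1 (SE 0.043, edgeR adjusted p = 5.18e-08), 0.55 with siRNA #2 (SE 0.043, adjusted p = 1.63e-06) and 0.67 with siRNA #3 (SE 0.043, adjusted p = 2.92e-07). The rise was larger with siRNA #1 than with siRNA #2 (difference 0.15 ± 0.042, adjusted p = 0.0107), whereas siRNA #1 and siRNA #3 differed by 0.031 ± 0.042 (adjusted p = 0.583).

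PRPF31, which bridges U4/U6 and U5 in the tri-snRNP (ENSG00000105618, chr19:54115410-54131719, plus strand), had the next largest mean rise. It measured 33.8, 36.9 and 34.9 CPM in scramble, 54.1, 52.4 and 47 CPM with siRNA #1, 45.7, 44.7 and 45.6 CPM with siRNA #2 and 46.6, 47.3 and 48.2 CPM with siRNA #3. The lowest siRNA library, at 44.7 CPM, stood above the highest scramble library, at 36.9 CPM. Its log2 fold changes were 0.54 ± 0.051 (SE), 0.36 ± 0.051 and 0.43 ± 0.051, with adjusted p = 2.41e-06, 0.000203 and 4.81e-05 from edgeR. Annotated exons of TFPT and PRPF31-AS1 on the opposite strand cover 31.3% of the PRPF31 exon bases, and whether the counting used strand is not given in the sources used here. PRPF3 and PRPF4, the other U4/U6 proteins, were not called with any siRNA, and their mean log2 fold changes were -0.0014 ± 0.039 and 0.036 ± 0.035.

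LSM7, of the U6-binding ring (ENSG00000130332, chr19:2321520-2328611, minus strand), rose with every siRNA and most with siRNA #1. Levels were 31.4, 33.4 and 35.6 CPM in scramble, 54.7, 53.5 and 51.8 CPM with siRNA #1, 37.6, 37.7 and 38.3 CPM with siRNA #2 and 39.9, 40.5 and 41.7 CPM with siRNA #3. The 3 siRNA groups did not overlap one another, and all stood above scramble. The log2 fold change was 0.67 with siRNA #1 (SE 0.046, edgeR adjusted p = 1.41e-07), but 0.18 with siRNA #2 (SE 0.046, adjusted p = 0.0125) and 0.28 with siRNA #3 (SE 0.046, adjusted p = 0.000515). The call with siRNA #2 was lost when scramble replicate 1 was left out (0.13, adjusted p = 0.0528).

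The promoter windows of these genes are shown because, of the members that rose with every siRNA, they had the largest rises for the mean of the siRNAs. Each runs from 250 bases before to 50 bases after a RefSeq transcription start (GRCh38.p14), on the gene's strand, with matches to the motifs described next in capitals. SART1 lies at chr11:65961484-65961783 (plus strand), PRPF31 at chr19:54115504-54115803 (plus strand) and LSM7 at chr19:2328537-2328836 (minus strand).
SART1: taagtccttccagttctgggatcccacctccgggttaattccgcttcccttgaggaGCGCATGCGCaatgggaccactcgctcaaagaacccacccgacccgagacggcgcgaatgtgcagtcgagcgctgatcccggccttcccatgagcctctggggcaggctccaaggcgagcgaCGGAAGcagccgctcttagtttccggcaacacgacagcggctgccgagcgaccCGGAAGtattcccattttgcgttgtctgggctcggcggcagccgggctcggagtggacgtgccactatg
PRPF31: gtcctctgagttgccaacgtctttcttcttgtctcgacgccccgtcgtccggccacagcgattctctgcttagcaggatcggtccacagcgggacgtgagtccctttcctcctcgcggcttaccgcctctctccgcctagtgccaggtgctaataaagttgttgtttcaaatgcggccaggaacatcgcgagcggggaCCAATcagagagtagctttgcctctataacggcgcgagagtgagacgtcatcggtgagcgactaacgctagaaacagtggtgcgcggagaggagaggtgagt
LSM7: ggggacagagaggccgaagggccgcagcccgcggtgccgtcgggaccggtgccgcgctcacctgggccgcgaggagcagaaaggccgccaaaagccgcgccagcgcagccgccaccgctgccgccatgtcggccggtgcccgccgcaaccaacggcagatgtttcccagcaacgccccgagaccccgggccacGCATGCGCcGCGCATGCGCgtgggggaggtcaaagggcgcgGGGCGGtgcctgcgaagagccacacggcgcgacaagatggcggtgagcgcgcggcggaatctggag

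The motifs searched on both strands were CGGAAG (the core bound by ETS factors), GCATGCGC (the core of the NRF1 site, which overlaps its own reverse complement), GGGCGG (GC box), CCAAT and TATAAA. RefSeq windows were found for 46 members, 60 windows in all. CGGAAG was present in 30 of the 60 member windows, beside 19.5% of all 35116 windows. GGGCGG was present in 58.3% beside 44.95%, CCAAT in 41.7% beside 34.6%, GCATGCGC in 6.67% beside 3.05%, and TATAAA in 3.33% beside 11.5%. Among 9 windows of the 7 genes that rose with all siRNAs, 4 held CGGAAG, 5 held GGGCGG, 5 held CCAAT, 2 held GCATGCGC and 0 held TATAAA. The 2 windows with GCATGCGC were those of SART1 and LSM7. Some genes have several windows, in part overlapping, and each was counted, so these are counts of windows and not of genes. Every window of USP39 held GGGCGG. Every window of SNRPG and SNRPD2 held CGGAAG, and no window of SNRPN or CWC22 did. A match describes the letters of a window and says nothing of a factor's binding.

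**Figure D2:**
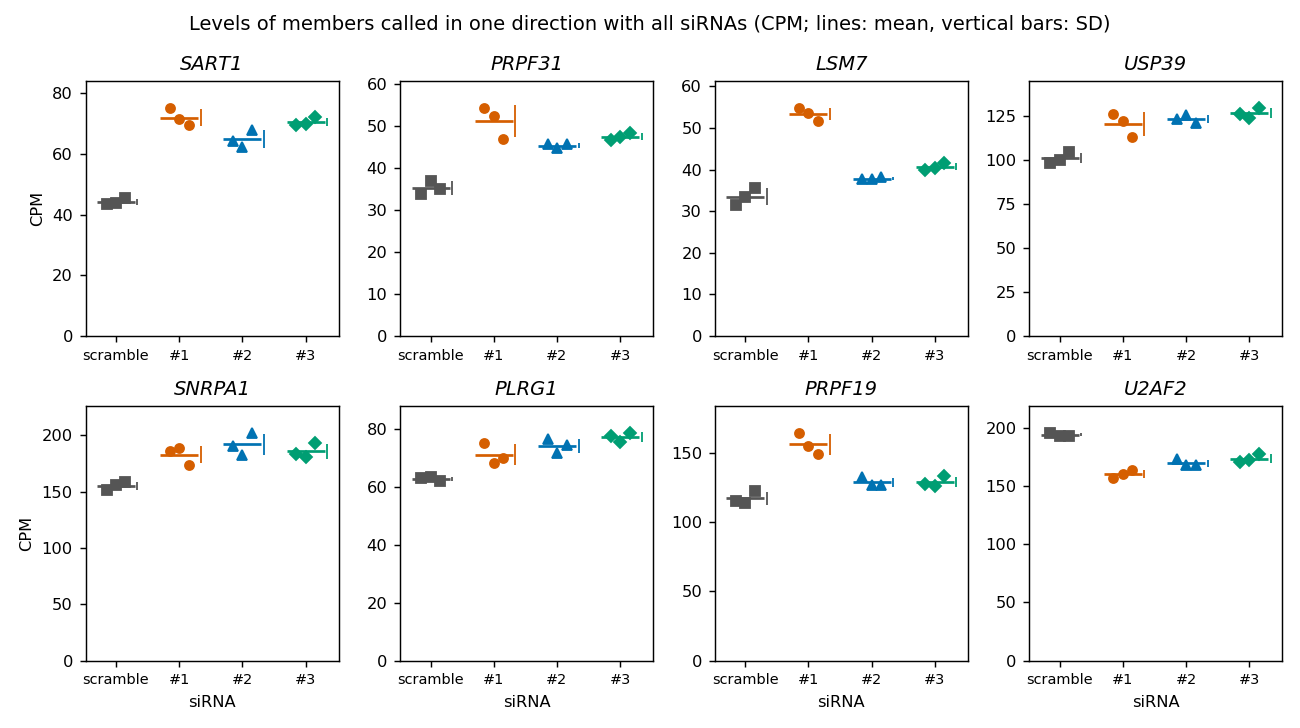
CPM (vertical axes, from 0) of the 8 members called in 1 direction with all siRNAs, with a point per library for scramble and siRNAs #1, #2 and #3, the group mean as a horizontal line and the SD (n = 3) as a vertical bar. In each panel the 9 siRNA libraries sit on 1 side of the 3 scramble libraries, below them in U2AF2 and above them in the others.

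USP39, a tri-snRNP protein related to deubiquitinases, rose by similar amounts with every siRNA. It measured 98.8, 100.5 and 105 CPM in scramble, 127, 122 and 113 CPM with siRNA #1, 123, 126 and 121 CPM with siRNA #2 and 127, 124 and 129.6 CPM with siRNA #3. Its log2 fold changes were 0.25 ± 0.043 (SE), 0.29 ± 0.043 and 0.32 ± 0.043, with edgeR adjusted p = 0.000327, 0.000339 and 0.000109. No pair of siRNAs differed past the threshold, and the estimates between pairs were -0.031 ± 0.043, -0.07 ± 0.043 and -0.039 ± 0.043. Among the other proteins of the tri-snRNP and complex B, PRPF38A was not called (mean log2 fold change 0.073 ± 0.035), and SNRNP27 went the other way with siRNA #1, as described below.

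SNRPA1 encodes the A' protein of U2 snRNP, which holds SNRPB2 on the U2 snRNA. SNRPA1 measured 152, 156 and 158 CPM in scramble, 186, 189 and 174 CPM with siRNA #1, 191, 183 and 202 CPM with siRNA #2 and 184, 181 and 193 CPM with siRNA #3. The groups treated with siRNA overlapped one another and lay above scramble. The log2 fold changes were 0.24 ± 0.047 (SE), 0.31 ± 0.047 and 0.26 ± 0.047, with edgeR adjusted p = 0.00105, 0.000379 and 0.00107. Its partner SNRPB2 was not called against scramble, with -0.07 ± 0.046, 0.027 ± 0.046 and 0.10 ± 0.046.

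In the NTC, the ubiquitin ligase PRPF19 and its partner PLRG1 rose with all siRNAs. PLRG1 measured 63, 63.5 and 62.2 CPM in scramble, 75.2, 68.2 and 70.1 CPM with siRNA #1, 76.7, 71.8 and 74.4 CPM with siRNA #2 and 77.7, 75.5 and 78.7 CPM with siRNA #3, with mean log2 fold change 0.24 ± 0.034 (SE, edgeR adjusted p = 0.000168). PRPF19 measured 116, 114 and 122 CPM in scramble, 164, 155 and 149 CPM with siRNA #1, 133, 127 and 127 CPM with siRNA #2 and 128, 126 and 133 CPM with siRNA #3. The siRNA #1 libraries were the highest for PRPF19, with log2 fold change 0.41 (SE 0.044, adjusted p = 6.89e-06), and the other siRNAs gave 0.14 ± 0.044 (adjusted p = 0.0394) and 0.14 ± 0.044 (adjusted p = 0.0312). The call of PRPF19 with all siRNAs was lost with upper quartile scaling, without the low-count filter, with the replicate number as a block (siRNA #2, adjusted p = 0.0510) and when any siRNA #2 or siRNA #3 library, or scramble replicate 1 or 2, was left out. CDC5L, a core NTC subunit, fell with siRNA #1 (-0.24 ± 0.046, adjusted p = 0.00094) and gave -0.013 ± 0.046 and -0.026 ± 0.046 with the others. AQR rose with siRNA #2 (0.11 ± 0.037, adjusted p = 0.0455) and siRNA #3 (0.12 ± 0.037, adjusted p = 0.0329), and CWC22, which recruits the exon junction complex, rose with siRNA #3 (0.14 ± 0.041, adjusted p = 0.0202).

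Factors of the 3' splice site moved in both directions. U2AF2, the large U2AF subunit that binds the polypyrimidine tract, measured 196, 193 and 193 CPM in scramble, 157, 160.2 and 164 CPM with siRNA #1, 173, 168 and 168 CPM with siRNA #2 and 171, 172 and 178 CPM with siRNA #3. All siRNA libraries lay at or below 178 CPM, under the scramble range. Its log2 fold changes were -0.28 ± 0.033 (SE), -0.19 ± 0.033 and -0.16 ± 0.033, with edgeR adjusted p = 1.88e-05, 0.000869 and 0.00268. SF1, the branch point protein, fell with siRNA #1 (-0.28 ± 0.04, adjusted p = 7.93e-05) and siRNA #2 (-0.12 ± 0.04, adjusted p = 0.0447), and gave -0.089 ± 0.04 (adjusted p = 0.112) with siRNA #3. U2AF1, the small subunit that reads the AG dinucleotide, rose with siRNA #1 (0.52 ± 0.077, adjusted p = 0.000124) and gave 0.04 ± 0.077 (adjusted p = 0.76) and 0.22 ± 0.077 (adjusted p = 0.0514) with the others. PUF60, a relative of U2AF2, rose with siRNA #1 (0.42 ± 0.071, adjusted p = 0.000329) and siRNA #3 (0.30 ± 0.071, adjusted p = 0.00649). The U2AF1 difference between siRNA #1 and siRNA #2 was 0.48 ± 0.077 (adjusted p = 0.000228), and between siRNA #1 and siRNA #3 0.30 ± 0.077 (adjusted p = 0.00598). The U2AF1 paralog U2AF1L4 was at 5.02 to 7.47 CPM.

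ZRSR2, which recognises the 3' splice site of minor introns, was among the largest falls with siRNA #2. It measured 16.7, 16.2 and 16.4 CPM in scramble, 15.4, 16.5 and 14.9 CPM with siRNA #1, 13.9, 13.9 and 14.5 CPM with siRNA #2 and 14.5, 15 and 15.7 CPM with siRNA #3. The siRNA #2 libraries all lay below scramble (log2 fold change -0.22, SE 0.052, adjusted p = 0.007, edgeR). The other siRNAs gave -0.074 ± 0.052 and -0.12 ± 0.052, neither past the threshold. SNRNP35, a protein of the minor U11 snRNP akin to SNRNP70, measured 18.4, 17.7 and 18.4 CPM in scramble, 15.3, 16.2 and 17.1 CPM with siRNA #1, 14.7, 14.6 and 15.4 CPM with siRNA #2 and 14.6, 16.6 and 17.2 CPM with siRNA #3. Every siRNA library lay below the scramble range, and the fall passed the test with siRNA #2 (log2 fold change -0.29, SE 0.064, adjusted p = 0.00525, edgeR) but not with siRNA #1 (adjusted p = 0.0507) or siRNA #3 (adjusted p = 0.0636). Exons of RILPL1 on the opposite strand cover 44% of the SNRNP35 exon bases.

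The other minor snRNP genes showed no common direction. PDCD7 rose with siRNA #1 (0.12 ± 0.039, adjusted p = 0.0213) and siRNA #2 (0.27 ± 0.039, adjusted p = 0.00028). SNRNP48 rose with siRNA #2 (0.20 ± 0.039, adjusted p = 0.00227) and siRNA #3 (0.18 ± 0.039, adjusted p = 0.00304). RNPC3 and ZMAT5 were not called with any siRNA. SNRNP25 stood out for its spread, a remark made after its values were seen: it was at 28.1, 24.8 and 29.2 CPM in scramble, 23.8, 23.8 and 25.3 CPM with siRNA #1, 21.7, 27.9 and 4.37 CPM with siRNA #2 and 10.6, 13.7 and 26 CPM with siRNA #3. One siRNA #2 and 2 siRNA #3 libraries were low while their replicates lay near scramble, so the SE of its fold changes was 0.46 to 0.47 and no call was made.

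Of 7 Sm ring genes tested, 0 were called with siRNA #1, beside 45.2% of all genes, and SNRPE alone was called with siRNA #2 and with siRNA #3, beside 25.8% and 29.4% of all genes. The other Sm genes had mean log2 fold changes from -0.076 ± 0.044 for SNRPB to 0.15 ± 0.082 for SNRPD3, and a missed threshold does not show equal levels. SNRPE measured 139, 140.1 and 146 CPM in scramble, 145, 143 and 132 CPM with siRNA #1, 128, 127 and 116 CPM with siRNA #2 and 85.9, 98.8 and 101 CPM with siRNA #3. The siRNA #3 libraries were the lowest and did not overlap any other group (log2 fold change -0.58, SE 0.062, adjusted p = 2.2e-05, edgeR), and the fall with siRNA #2 was smaller (log2 fold change -0.20, SE 0.062, adjusted p = 0.0328). The difference between siRNA #2 and siRNA #3 was 0.38 ± 0.062 (adjusted p = 0.00145). Named pseudogene copies of the members, 10 of them for SNRPE, together held at most 0.116% of the level of their member in scramble.

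In U1 snRNP, the siRNAs differed from one another. SNRNP70, whose protein contacts the U1 snRNA and SR proteins, measured 272, 273 and 283 CPM in scramble, 279, 283 and 280.3 CPM with siRNA #1, 239, 240.2 and 233 CPM with siRNA #2 and 216, 215 and 229 CPM with siRNA #3. Scramble and siRNA #1 overlapped, and the other groups lay below both. SNRNP70 fell with siRNA #2 (log2 fold change -0.22, SE 0.036, adjusted p = 0.000657, edgeR) and siRNA #3 (log2 fold change -0.33, SE 0.036, adjusted p = 2.31e-05). Direct tests gave 0.24 ± 0.036 between siRNA #1 and siRNA #2 (adjusted p = 0.000107) and 0.35 ± 0.036 between siRNA #1 and siRNA #3 (adjusted p = 3.79e-06). SNRPA rose with siRNA #1 (0.36 ± 0.052, adjusted p = 9.92e-05), and SNRPC was not called with any siRNA.

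The helicase DDX46, which acts with U2 snRNP at the branch point, was lower with siRNA #2 and siRNA #3. It measured 308, 289.8 and 279 CPM in scramble, 275, 282 and 292 CPM with siRNA #1, 245, 232 and 246 CPM with siRNA #2 and 275, 247 and 249 CPM with siRNA #3. The siRNA #1 libraries overlapped scramble, and the others lay below it. DDX46 fell with siRNA #2 (log2 fold change -0.28, SE 0.051, adjusted p = 0.00147, edgeR) and siRNA #3 (log2 fold change -0.18, SE 0.051, adjusted p = 0.0159). The call with siRNA #3 was lost without scramble replicate 1 (-0.15, adjusted p = 0.0768), siRNA #3 replicate 2 (-0.16, adjusted p = 0.0767) or siRNA #3 replicate 3 (-0.16, adjusted p = 0.0577). DHX15, which disassembles spent spliceosomes, fell slightly with siRNA #1 (-0.089 ± 0.031, adjusted p = 0.034).

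Members of U5 snRNP were called in the upward direction or not at all in the main fit. Of 6 tested, 3, 2 and 2 rose with siRNA #1, #2 and #3, beside 21.9%, 13.7% and 16.5% of all genes. PRPF8, the protein at the core of the catalytic centre, measured 521, 439 and 516 CPM in scramble, 543, 627 and 559 CPM with siRNA #1, 645, 641 and 548 CPM with siRNA #2 and 574, 576 and 489 CPM with siRNA #3. It passed the test with siRNA #2 (log2 fold change 0.31, SE 0.089, adjusted p = 0.0214, edgeR) but not with siRNA #1 (adjusted p = 0.0546) or siRNA #3 (adjusted p = 0.234). The call was lost without siRNA #2 replicate 1 (0.27, adjusted p = 0.0813), siRNA #2 replicate 2 (0.28, adjusted p = 0.0817) or scramble replicate 2 (0.24, adjusted p = 0.0924). The helicase SNRNP200, which unwinds U4 from U6, rose with siRNA #1 (0.14 ± 0.042, adjusted p = 0.0165) and siRNA #2 (0.16 ± 0.042, adjusted p = 0.0155). DDX23 rose with siRNA #1 (0.26 ± 0.04, adjusted p = 0.000133) and siRNA #3 (0.17 ± 0.04, adjusted p = 0.00668). EFTUD2, the U5 GTPase, rose with siRNA #1 (0.26 ± 0.045, adjusted p = 0.000332), and SNRNP40 rose with siRNA #3 (0.20 ± 0.044, adjusted p = 0.0037). PRPF6 was not called with any siRNA.

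Direct comparisons set siRNA #1 apart from the other siRNAs. siRNA #2 and siRNA #3 share almost their whole sequence, as given above. Between siRNA #1 and siRNA #2, 25 members were called, 51.0% beside 46.7% of all genes, with 15 higher and 10 lower with siRNA #1. Between siRNA #1 and siRNA #3, 21 were called, 42.9% beside 48.6%, with 9 higher and 12 lower. Both shares were near the background. Between siRNA #2 and siRNA #3, 4 members were called, 8.16% beside 15.6% of all genes, and the count was 2 when siRNA #2 replicate 1 or 2 was left out. The 4 were SNRPE and PDCD7, higher with siRNA #2, and DDX23 and PUF60, lower with it. The direction of the siRNA #1 calls depended on the setting, with 18 higher and 6 lower against siRNA #2 and 15 higher and 10 lower against siRNA #3 under upper quartile scaling. The median log2 fold change over all genes moved too, from 0.029 and 0.025 to 0.081 and 0.085 with upper quartile scaling. That scaling gave 4 higher and 2 lower between siRNA #2 and siRNA #3, and RLE gave 2 and 1. With a filter at a mean of 1 CPM, 16 were higher and 10 lower with siRNA #1 than with siRNA #3. Against siRNA #2 the split was 10 higher and 10 lower without siRNA #1 replicate 1, and 10 higher and 13 lower without siRNA #1 replicate 2. There were 9 members higher with siRNA #1 than with both others, 18.4% beside 17.6% of all genes, and 9 lower than with both, 18.4% beside 19%.

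**Figure D3:**
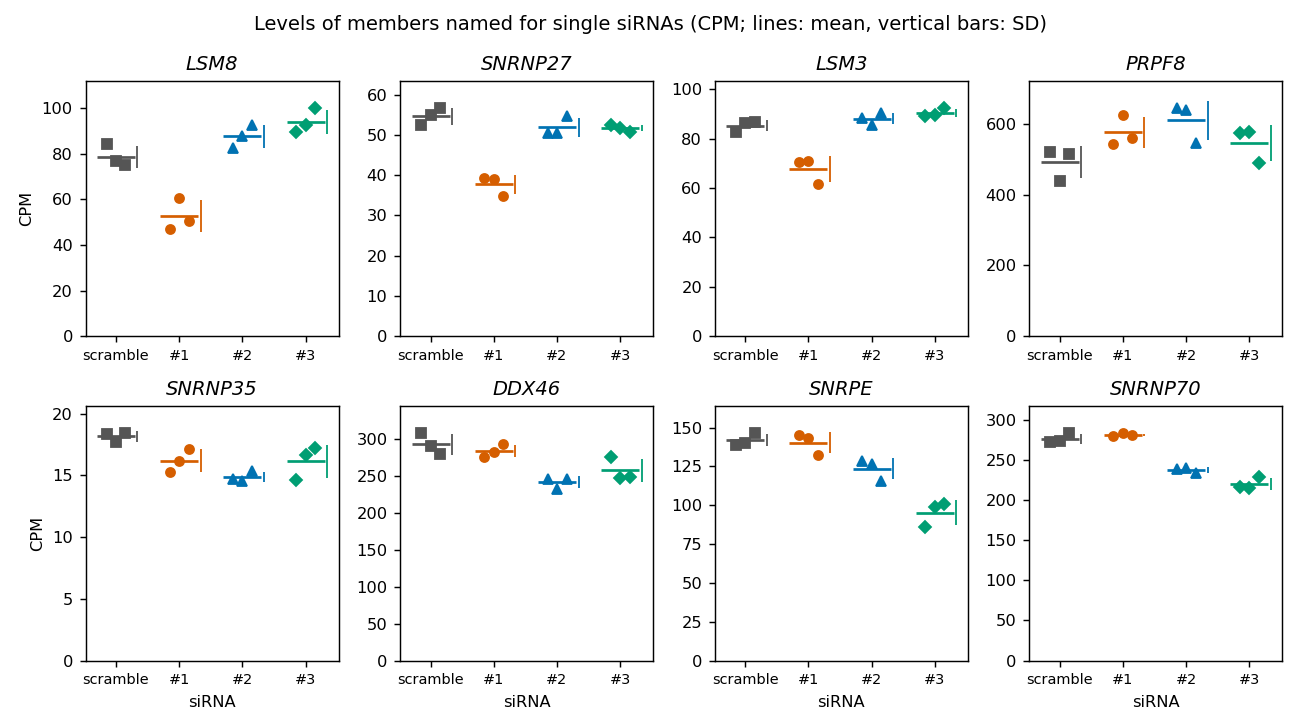
CPM (vertical axes, from 0) of 8 members named for the size of their change with single siRNAs, with a point per library, the group mean as a horizontal line and the SD (n = 3) as a vertical bar. LSM8, SNRNP27 and LSM3 are low with siRNA #1 alone, whereas SNRPE and SNRNP70 are low with siRNA #2 and siRNA #3 and lowest with siRNA #3.

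The LSm ring held the largest of these differences, in opposite directions within the same ring. LSM8, the subunit that distinguishes the nuclear U6 ring from the cytoplasmic ring of mRNA decay (ENSG00000128534, chr7:118184144-118204035, plus strand), measured 84.2, 77.1 and 75.1 CPM in scramble, 47, 60.6 and 50.7 CPM with siRNA #1, 82.7, 87.8 and 92.8 CPM with siRNA #2 and 89.5, 92.8 and 100.002 CPM with siRNA #3. The siRNA #1 libraries lay below every other library. LSM8 fell with siRNA #1 (log2 fold change -0.58, SE 0.083, adjusted p = 9.01e-05, edgeR) and rose with siRNA #3 (log2 fold change 0.26, SE 0.082, adjusted p = 0.0337). The difference between siRNA #1 and siRNA #2 was -0.73 ± 0.083 (adjusted p = 1.14e-05) and between siRNA #1 and siRNA #3 -0.83 ± 0.083 (adjusted p = 3.35e-06). The rise with siRNA #3 no longer passed with upper quartile scaling (0.20, adjusted p = 0.0850) or without scramble replicate 2 or 3 or siRNA #3 replicate 2 or 3 (0.21 to 0.27, adjusted p = 0.0690 to 0.113), whereas the fall with siRNA #1 passed in every setting. LSM8 was the 1 member called in opposite directions with siRNA #1 and siRNA #3 and between them, 2.04% of the members beside 6.16% of all genes.

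LSM3 measured 82.7, 86.4 and 86.9 CPM in scramble, 70.4, 71.1 and 61.6 CPM with siRNA #1, 88.5, 85.6 and 90.2 CPM with siRNA #2 and 89.1, 89.7 and 92.3 CPM with siRNA #3. It too was low with siRNA #1 alone (log2 fold change -0.33, SE 0.051, adjusted p = 0.000143, edgeR), and siRNA #1 differed from siRNA #2 by -0.38 ± 0.051 (adjusted p = 4.7e-05) and from siRNA #3 by -0.42 ± 0.051 (adjusted p = 1.98e-05). LSM7, described above, was higher with siRNA #1 than with siRNA #2 (0.49 ± 0.045, adjusted p = 1.83e-06) and siRNA #3 (0.39 ± 0.045, adjusted p = 1.31e-05). Of the other ring genes, LSM5 fell with siRNA #1 (-0.16 ± 0.057, adjusted p = 0.0329), LSM6 rose with it (0.12 ± 0.04, adjusted p = 0.024), and LSM4 was not called against scramble. The summed level of the ring was 350 to 390 CPM with siRNA #1, against 381 to 396 CPM in scramble, 401 to 409 CPM with siRNA #2 and 401 to 429 CPM with siRNA #3.

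SNRNP27, a small tri-snRNP protein, was also low with siRNA #1 alone. It measured 52.5, 54.9 and 56.6 CPM in scramble, 39.2, 39 and 34.9 CPM with siRNA #1, 50.6, 50.6 and 54.7 CPM with siRNA #2 and 52.4, 51.8 and 50.8 CPM with siRNA #3. The siRNA #1 libraries, at or below 39.2 CPM, lay under all others (log2 fold change -0.54, SE 0.051, adjusted p = 2.6e-06, edgeR). The other siRNAs gave -0.073 ± 0.051 and -0.081 ± 0.051, and siRNA #1 differed from them by -0.46 ± 0.051 (adjusted p = 9.24e-06) and -0.46 ± 0.051 (adjusted p = 9.81e-06). Exons of MXD1 on the same strand overlap 12.5% of the SNRNP27 exon bases.

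Base composition moved with the siRNA #1 changes and not visibly with the others. The canonical transcripts of the members held 34.3% to 63.4% GC, with a median of 49.5%. Across the 49 tested members, Spearman's rho between GC content and log2 fold change was 0.46 with siRNA #1, 0.019 with siRNA #2 and 0.019 with siRNA #3. Over 20691 tested genes with a canonical transcript the values were 0.24, -0.14 and -0.11. LSM8 had the lowest GC of the members and fell most with siRNA #1, while SART1, LSM7 and PRPF31, the largest rises, held 58.7% to 59.6% GC. Other GC-rich members did not rise with siRNA #1: U2AF2 (60.5% GC) and SF1 (56.8% GC) each fell by 0.28 on the log2 scale, and SNRNP70, with the highest GC (63.4%), gave 0.025. The points are genes of the same libraries and share the scramble reference, so they are not replicates, and the part of base composition in these results was not tested.

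**Figure D4:**
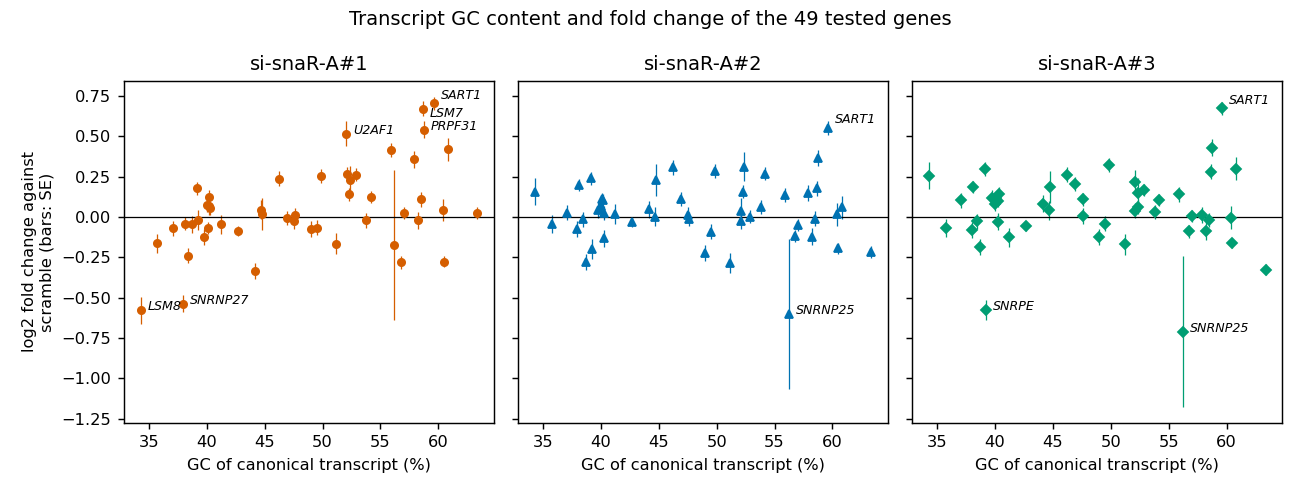
Log2 fold change against scramble (vertical axis; bars are SE) of the 49 tested members by the GC content of the canonical transcript in percent (horizontal axis), with a panel for each siRNA and names beside changes over 0.45. The points rise from lower left to upper right with siRNA #1 (rho 0.46) and show no such slope with siRNA #2 or siRNA #3 (rho 0.019 each).

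Genes of the same pathway outside the 51 members were read for comparison, 75 in number with 74 tested. For the mean of the siRNAs, 22 rose and 17 fell, or 52.7% beside 32.2% of all genes (15.6% higher and 16.6% lower). That share was close to the 51.0% of the members. Of the subunits of SF3A and SF3B, 6 rose and 0 fell of 10 in that comparison, among them PHF5A (0.56 ± 0.041, edgeR adjusted p = 7.48e-07) and SF3B2 (0.46 ± 0.03, adjusted p = 3.44e-07). Their median log2 fold change was 0.18, against 0.027 for the members. With siRNA #3, 4 of these subunits rose and 1, SF3B5, fell (-0.34 ± 0.050, adjusted p = 0.000251), although SF3B5 had risen with siRNA #1 (0.26 ± 0.050, adjusted p = 0.000848). The difference between these lists was not tested. Of genes for snRNP assembly, 7 rose and 1 fell of 16, including the methyltransferase PRMT5 (0.24 ± 0.029, adjusted p = 5.03e-05), which modifies Sm proteins, and the SMN complex subunit GEMIN4 (0.32 ± 0.036, adjusted p = 2.82e-05).

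For the mean of the siRNAs, 15.6% of all genes were called higher and 16.6% lower. Other NTC and catalytic factors fell more often than they rose, with 3 higher (15%) and 7 lower (35%) of 20. Among those that fell were RBM22 (-0.31 ± 0.033, edgeR adjusted p = 1.28e-05) and BCAS2 (-0.30 ± 0.036, adjusted p = 3.88e-05), which belong to the NTC and its associated proteins. Of other snRNP and early factors, 5 rose (22.7%) and 6 fell (27.3%) of 22. Of LSm proteins outside the LSM2-8 ring, 1 rose (16.7%) and 3 fell (50%) of 6. LSM14B, a cytoplasmic LSm protein, fell with -0.55 ± 0.025 (adjusted p = 2.19e-08). With all siRNAs in 1 direction, 8 of the 74 genes rose and 3 fell, or 10.8% and 4.05%. The shares were 14.3% and 2.04% of the members, and 5.16% and 2.84% of all genes.

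**Figure D5:**
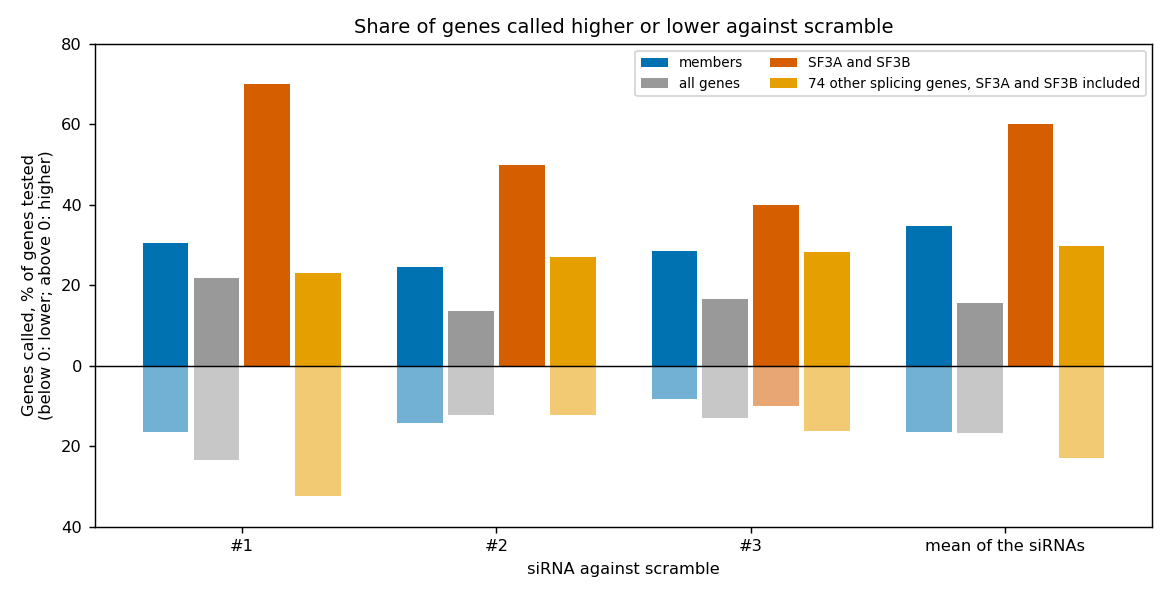
Percent of tested genes called higher (bars above 0) or lower (paler bars below 0) against scramble with each siRNA and for their mean, for the members, all genes tested, SF3A and SF3B, and the 74 other splicing genes tested. For the mean, 34.7% of the members were higher and 16.3% lower, between all genes (15.6% and 16.6%) and SF3A and SF3B (60.0% and none lower of 10).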

How the data were processed

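RNA was depleted of rRNA, enriched for poly(A)+ RNA and made into stranded libraries, per the labels. Per the study's methods, the authors trimmed reads with TrimGalore 0.6.5 and estimated transcript abundance with Salmon 1.5.2. The labels name hg38, and the transcriptome release and the use of strand in counting are not given in the sources used here. The deposited table holds estimated counts per Ensembl gene with fractions, and they were rounded to whole numbers here. Symbols were assigned through GENCODE release 44, in which 58160 of 63541 identifiers are present. Counts were fitted with edgeR 4.0.16 (R 4.3.3; TMM, filterByExpr, quasi-likelihood test) in 1 model over the 12 libraries with a coefficient per group, without covariates, in all 7 contrasts. Benjamini-Hochberg adjustment ran over 21999 genes, and a call is an adjusted p under 0.05. The SE was taken as the size of the log2 fold change over the root of its F statistic. Values after ± are SE of log2 fold changes.

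Members and lists were chosen with earlier results of these data known. Values per library are given for members called in 1 direction with all siRNAs and separated from scramble, for the 3 largest rises and falls called with each siRNA, for the 4 largest differences of siRNA #1 from both other siRNAs by the mean of both sizes, and for members under 1 CPM. The other members are given by single values. The leukocyte markers CD3E and CD14, the endothelial PECAM1 and VWF, the tubule SLC12A1 and SLC34A1, and the fibroblast DCN and LUM reached at most 0.00808, 0.206, 0.108, 0.750, 0.0294, 0.0217, 0.335 and 8.29 CPM. A further leukocyte marker is not reported here. The line's KRT8, KRT18, NEFL, PAX2 and CDH2 had medians of 7.91, 30.7, 160.1, 5.54 and 147 CPM. No 2 replicate libraries of the same group agreed within sampling noise. Alternatives were RLE and upper quartile scaling, other filters, DESeq2 1.42.0, limma-voom 3.58.1, a replicate block, fits on the groups compared, and leaving out each library. The fit was also run on simulated counts with 200 changed genes, and the outcome is not reported here.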

Additional observations from a re-analysis of the deposited data

Results flagged for a closer look

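LSM8 stood out because the siRNAs moved it in opposite directions. It fell with siRNA #1 (log2 fold change -0.58, SE 0.083, edgeR adjusted p = 9.01e-05) and rose with siRNA #3 (0.26, SE 0.082, adjusted p = 0.0337), both against the same scramble libraries. The direct test between siRNA #1 and siRNA #3 gave a difference of -0.83 (SE 0.083, adjusted p = 3.35e-06), with all siRNA #1 libraries below all siRNA #3 libraries. Opposite calls of this kind were made for 6.16% of all genes tested. The rise with siRNA #3 was lost with upper quartile scaling and under 4 single-library omissions, and the direct difference was called in every setting.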

How the results depend on the processing

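Over all alternatives, none turned the direction of a member given by its library values in the comparison checked for it. For the 8 called with all siRNAs, that comparison was the mean of the siRNAs, not the single siRNA calls that selected them. Of 34 such results, 32 kept their call in every setting. The exceptions were DDX46 with siRNA #3 and PRPF8 with siRNA #2, each lost under 3 single-library omissions, as given above. Among the single siRNA calls that selected the 8, PRPF19 was lost with siRNA #2 in 9 settings and with siRNA #3 in 6, and LSM7 with siRNA #2 in 1. Of all 60 member calls with single siRNAs, 17 were lost in 1 setting or more. These were mostly small changes. With siRNA #1 they were DHX15, LSM5, LSM6, PDCD7 and SNRNP200, with highest adjusted p of 0.27, 0.13, 0.13, 0.12 and 0.084. With siRNA #2 they were AQR, LSM7, PRPF19, PRPF8, SF1, SNRNP200 and SNRPE, with highest adjusted p of 0.19, 0.053, 0.15, 0.092, 0.18, 0.067 and 0.15. With siRNA #3 they were AQR, CWC22, DDX46, LSM8 and PRPF19, with highest adjusted p of 0.19, 0.083, 0.077, 0.11 and 0.12. DHX15 with siRNA #1 was lost in 13 settings and SF1 with siRNA #2 in 15. The median log2 fold change of the members for the mean of the siRNAs, 0.027 as reported, was -0.0036 with upper quartile scaling and 0.015 to 0.053 when single libraries were left out, and these differences exceeded the spread of the median between replicates (SD 0.023) for upper quartile scaling and without scramble replicate 3. The count of members called between siRNA #2 and siRNA #3, 4 as reported, ranged from 2 to 6 without single libraries. The cause of these shifts was not tested. The members called in 1 direction with all siRNAs numbered 6 to 10 without single libraries and 7 to 9 in the other settings. SART1, PRPF31, USP39, SNRPA1, PLRG1 and U2AF2 were called with all siRNAs in every setting. Same-numbered libraries of different groups had correlations of deviations from -0.24 to 0.18. Libraries of different numbers were not compared in this way, so whether replicate numbers pair the libraries was not settled. With the replicate number as a block, 23, 15 and 18 members were called with siRNA #1, #2 and #3, 24 for the mean and 8 with all siRNAs, beside 23, 19, 18, 25 and 8 without it. The share of all genes called under the block was not taken. The members called with all siRNAs were not the same under the block: PRPF19 was lost, and SNRNP35 was gained as a fall (siRNA #1 -0.17, adjusted p = 0.0341; siRNA #3 -0.17, adjusted p = 0.0448). Scaling moved the median over all genes by less than 0.1 on the log2 scale, a bound larger than the members' median itself. For the mean of the siRNAs it was -0.038 as reported, -0.069 with upper quartile scaling and -0.022 with RLE. With siRNA #3 against scramble it was -0.033, -0.086 and -0.017.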
